A study of Mus musculus with 4 samples.

Results

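Of the 30828 rows of the mouse testis count matrices, 9 transcripts are described here: *Mirt1*, RP23-41J14.2, RP23-143D12.2, RP23-9F3.4, RP23-167L1.7, RP23-309M3.4, RP23-265N8.2, RP24-337D17.1 and AC107822.6. They were picked by symbol, with their levels in these same libraries already known: across spermatogonial stages, in Sertoli and stromal cells, over mitochondrial share and depth, and between genotypes. The levels and ratios below are therefore a description and carry no test. All but *Mirt1* bear the name of the genomic clone on which they were annotated, as did 9318 rows in all. The label of noncoding transcripts holds for 7 of the 9. RP23-41J14.2 is annotated as the protein-coding gene *Lbhd2* and RP23-265N8.2 as the protein-coding gene *Gm10439*.

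Testes of mice at postnatal day 8 (P8) had been dissociated, sorted by flow cytometry on CD9 and THY1 to enrich spermatogonia, and profiled cell by cell in droplets, where polyadenylated RNA is captured and read from its 3′ end. The *Cnot3*-cKO mice carried *Cnot3* flox/flox and *Ddx4*-creER, a Cre made in germ cells that acts after 4-hydroxytamoxifen (4-OHT), and the control mice are labelled wild-type. All mice received 4-OHT from P1. The labels give 2 samples a genotype, but 1 matrix a genotype merges them with no record of which cell came from which, so each group is 1 library and no difference could be tested between animals.

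Long noncoding RNAs are transcripts that are capped, usually spliced and polyadenylated like messenger RNAs but are not known to be translated. Many are annotated only from cDNA or RNA sequencing, and the testis is known for expressing a large number of them. Antisense ones overlap a gene on the opposite strand, whereas lincRNAs (long intergenic noncoding RNAs) stand apart from protein-coding genes. CNOT3, whose gene is targeted in the *Cnot3*-cKO germ cells, is a subunit of the CCR4-NOT complex, which shortens poly(A) tails of RNAs in the cytoplasm. Spermatogonial stem cells (SSCs) give rise to progenitors, which differentiate and then enter meiosis, while Sertoli cells are the somatic cells that nurse them.

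A 3′-tag count reads a transcript from its 3′ end, so the annotated ends of the 7 noncoding members are shown. No read positions were used, so these stretches come from the annotation and need not be those that were counted. Each is the last 60 bases of 1 annotated transcript, written 5′ to 3′ on the transcript's strand of GRCm38. Capitals mark the polyadenylation signals AATAAA and ATTAAA found by search of that strand, with overlapping matches merged. For *Mirt1*, with 6 annotated transcripts, and for RP23-9F3.4, with 3, a transcript whose end holds a signal is shown; for RP23-143D12.2, with 2, likewise.
Mirt1 (Mirt1-202, chr19:53444014-53444073, minus strand): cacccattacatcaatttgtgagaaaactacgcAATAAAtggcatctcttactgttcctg
RP23-143D12.2 (Gm10827-201, chr10:18238001-18238060, plus strand): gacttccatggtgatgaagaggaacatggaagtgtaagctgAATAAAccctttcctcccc
RP23-9F3.4 (Gm31763-203, chr10:67041267-67041326, plus strand): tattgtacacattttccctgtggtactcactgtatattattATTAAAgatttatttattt
RP23-167L1.7 (Gm16222-201, chr10:76080443-76080502, plus strand): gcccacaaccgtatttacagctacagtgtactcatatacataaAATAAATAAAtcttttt
RP23-309M3.4 (Gm49016-201, chr14:78945180-78945239, minus strand): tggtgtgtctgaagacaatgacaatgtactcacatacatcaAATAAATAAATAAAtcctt
RP24-337D17.1 (Gm35533-201, chr10:100129868-100129927, minus strand): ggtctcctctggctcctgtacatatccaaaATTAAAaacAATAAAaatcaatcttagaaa
AC107822.6 (Gm2044-201, chr7:139957005-139957064, minus strand): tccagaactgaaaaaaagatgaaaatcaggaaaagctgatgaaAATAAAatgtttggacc

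Since the ends of *Mirt1*, RP23-143D12.2 and RP23-9F3.4 were picked for holding a signal, the ends shown give no count. Of all annotated ends, AATAAA lay in 2 of 6 for *Mirt1*, 1 of 2 for RP23-143D12.2 and 0 of 3 for RP23-9F3.4, where 1 of 3 holds ATTAAA, and the 1 annotated end of each of the other 4 holds AATAAA. Over all annotated transcripts of the genome, AATAAA lay in the last 60 bases of 24.0% of 30236 noncoding and 41.1% of 58781 protein-coding transcripts, and either signal in 31.5% and 51.0%. A match is a description of the annotated end and does not show that the RNA is cleaved there.

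The members lie at 9 separate loci (GENCODE M21, GRCm38). *Mirt1*, a lincRNA, spans chr19:53443230-53464796 on the minus strand and overlaps the lincRNA 4833407H14Rik on the opposite strand. RP23-143D12.2 (*Gm10827*, lincRNA) spans chr10:18235053-18246019 and lies 55 bases from *Ccdc28a* on the opposite strand. The next 3 are annotated as antisense. RP23-9F3.4 (*Gm31763*) spans chr10:67005020-67041326 and overlaps *Reep3*. RP23-167L1.7 (*Gm16222*) spans chr10:76078617-76080502 and overlaps *Slc5a4b*. RP23-309M3.4 (*Gm49016*) spans chr14:78945180-78947227 and overlaps *Vwa8*. RP24-337D17.1 (*Gm35533*) spans chr10:100129868-100144126 with no other annotated gene within 10 kb. AC107822.6 (*Gm2044*) spans chr7:139957005-139958039 and overlaps *Gm16201*, which has no row in the matrices. The coding members are RP23-41J14.2 (*Lbhd2*) at chr12:111406809-111412090, which lies 4927 bases before *Exoc3l4* on the same strand, and RP23-265N8.2 (*Gm10439*) at chrX:149594570-149636764, which lies 32 bases from RP23-265N8.1.

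The libraries held 181550221 (control) and 168770743 (*Cnot3*-cKO) unique molecular identifiers (UMIs), each counting 1 captured RNA molecule, and 8259 and 9268 cells of at most 20% mitochondrial UMIs were used, with medians of 14475 and 13150 UMIs. The libraries shared 18 cell barcodes. Cells were clustered without the members and named from marker genes: 1334 and 560 were germ-like, 2884 and 4362 Sertoli-like, 2406 and 2322 stroma-like and 1296 and 1609 peritubular myoid-like, with fewer than 100 endothelial-like or macrophage-like cells in each. These numbers were set in part by the sort. All 8 germ markers were seen in the germ-like cells, at a summed 2368 and 2411 CPM (UMIs per 1000000 UMIs of the cells), against 27.0 and 15.2 in Sertoli-like cells. Germ-like cells had *Cnot3* itself at 71.1 CPM (control) and 39.4 CPM (*Cnot3*-cKO), a log2 ratio of -0.85 (95% interval -0.95 to -0.75), against 63.8 and 67.5 in Sertoli-like cells. Intervals throughout cover counting error only, and are too narrow for transcripts whose UMIs crowd into few cells. Levels are compared between cells and never between members, since 3′ tags give no level per length.

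The members fell into 2 sets by cell type. In control, 7 of the 9 were higher in germ-like than in Sertoli-like cells, whereas RP24-337D17.1 and AC107822.6 were far higher in Sertoli-like cells. *Mirt1* was at 11.1 CPM in germ-like and 0.193 in Sertoli-like cells, a 57.6-fold difference. RP23-167L1.7, at 36.4 against 0.627, differed 58.0-fold, and RP23-265N8.2, at 34.1 against 0.459, differed 74.4-fold. RP23-309M3.4 differed most, 164-fold, but rested on 1 UMI in Sertoli-like cells. The germ preference was smaller for RP23-41J14.2 (19.3 against 2.56 CPM, 7.55-fold) and for RP23-143D12.2 (10.0 against 2.08 CPM, 4.82-fold). For RP23-9F3.4 control germ-like cells, at 0.511 CPM, and Sertoli-like cells, at 0.386 CPM, could not be told apart by counting (log2 ratio 0.40, interval -0.52 to 1.38).

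**Figure D1:**
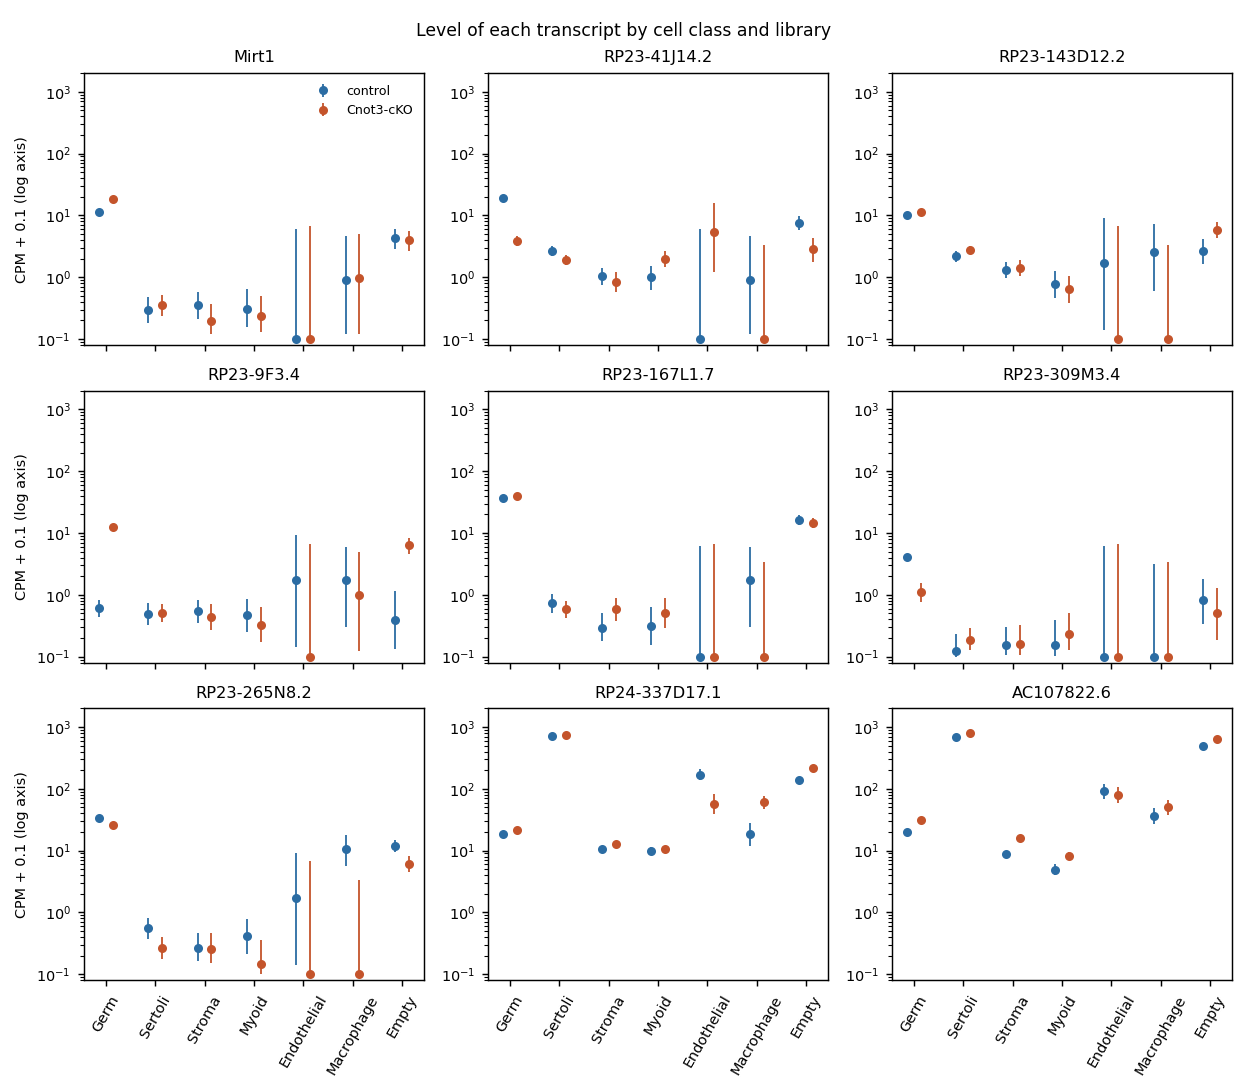
CPM of each member (log axis, 0.1 added so that zeros can be drawn) in germ-like, Sertoli-like, stroma-like, myoid-like, endothelial-like and macrophage-like cells and in empty barcodes, blue for control and orange for *Cnot3*-cKO, with bars for the 95% Poisson interval. RP24-337D17.1 and AC107822.6 are highest in Sertoli-like cells, and the other 7 are highest in germ-like cells in at least 1 library among the large classes.

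Between genotypes, the germ-like cells gave 1 member at least 2-fold higher in *Cnot3*-cKO (RP23-9F3.4) and 2 at least 2-fold lower (RP23-41J14.2 and RP23-309M3.4), with 6 in between. Among all 13298 genes with at least 100 UMIs, 1.85% were at least 2-fold higher and 0.594% at least 2-fold lower. Among the 990 clone-named rows with that many UMIs the shares were 1.82% and 1.31%. Since the members were picked with these ratios known, nothing is read from their count. The median log2 ratio was 0.15 over the members, 0.02 over all genes and 0.03 over clone-named rows.

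RP23-9F3.4 went from 29 UMIs (0.511 CPM) in control to 326 UMIs (12.6 CPM) in *Cnot3*-cKO germ-like cells, 24.6-fold, a log2 ratio of 4.62 (4.07 to 5.22), the highest of the 990 clone-named rows. RP23-41J14.2 went from 1095 UMIs (19.3 CPM) to 98 (3.78 CPM), a log2 ratio of -2.35 (-2.67 to -2.05), the lowest of the 990. RP23-309M3.4 went from 224 UMIs (3.95 CPM) to 26 (1.0 CPM), a log2 ratio of -1.98 (-2.62 to -1.39), which was 0.39 under the filters stated in the study, with 241 and 73 germ-like cells.

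The other ratios were smaller. *Mirt1* went from 11.1 to 18.6 CPM (log2 ratio 0.74, 0.57 to 0.92), but its ratio was -4.15 in the 241 and 73 germ-like cells left by the study's filters. AC107822.6 went from 19.7 to 31.5 CPM (0.68, 0.55 to 0.81). RP24-337D17.1 went from 18.2 to 21.7 CPM (0.26, 0.11 to 0.41) and RP23-265N8.2 from 34.1 to 26.1 (-0.39, -0.51 to -0.26). RP23-167L1.7, at 36.4 and 39.5 CPM (0.12, 0.01 to 0.23), and RP23-143D12.2, at 10.0 and 11.1 CPM (0.15, -0.06 to 0.36), were the nearest to equal.

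**Figure D2:**
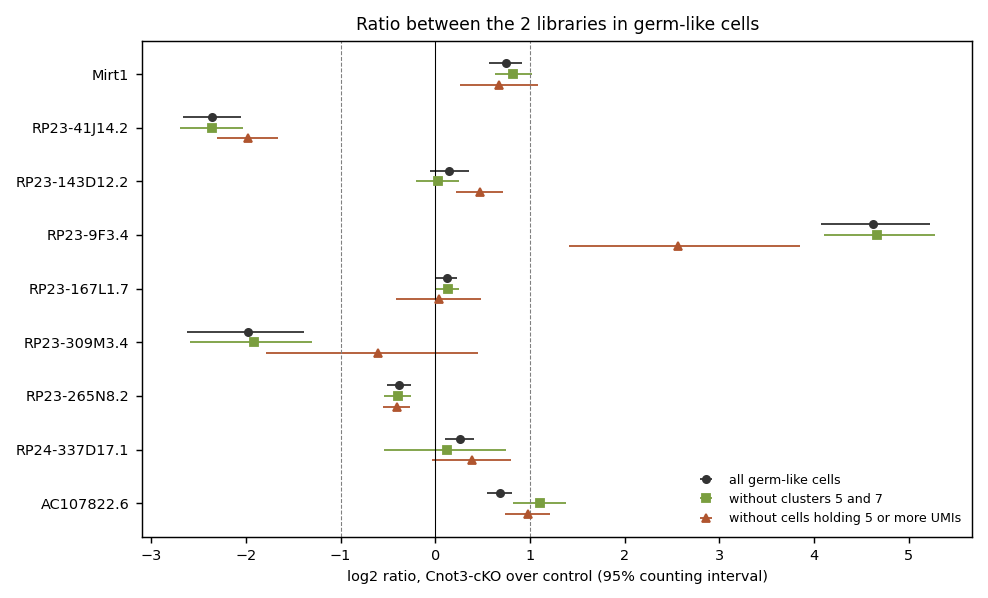
Log2 ratio of *Cnot3*-cKO over control in germ-like cells for each member, with 95% counting intervals, in all germ-like cells (black circles), without the unnamed clusters 5 and 7 (green squares) and without cells holding 5 or more UMIs of the member (orange triangles); dashed lines mark 2-fold. RP23-9F3.4 moves from 4.62 to 2.56 and RP23-309M3.4 from -1.98 to -0.60 once the cells with many UMIs are left out, whereas RP23-41J14.2 stays past 2-fold at -1.98.

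The members also differed in how their UMIs were spread over germ-like cells. A transcript that every germ cell expresses alike would reach a number of cells that follows from its UMIs and the cells' depths, and the median gene of the germ-like cells reached 96.1% (control) and 96.0% (*Cnot3*-cKO) of that number. RP23-265N8.2 came near this, with 1935 control UMIs in 915 cells (93.8% of the random spread) and at most 9 UMIs in any cell. RP23-167L1.7, with a similar total of 2063 UMIs, lay in 179 cells (17.9%), up to 57 UMIs in 1 cell.

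*Mirt1*, RP23-9F3.4, RP23-167L1.7 and RP23-309M3.4 were crowded into few germ-like cells. In control, the 631 UMIs of *Mirt1* lay in 102 cells, and 5 of these held at least 50% of them, with 95, 88, 69, 35 and 30 UMIs. The 224 UMIs of RP23-309M3.4 lay in 34 cells, of which 8 with 5 or more UMIs held 85.3%. For RP23-167L1.7, 97 such cells held 93.6% of the UMIs.

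In *Cnot3*-cKO the 326 UMIs of RP23-9F3.4 lay in 23 cells, 9.66% of the random spread and the lowest value of the 10883 genes compared. A single cell held 98 of them, the next held 75, and 7 cells together held 302 (92.6%). In control its 29 UMIs lay in 11 cells, 20 of them in 2 cells. The 24.6-fold ratio of this transcript therefore compares 7 crowded cells of 560 with 2 of 1334. Without cells of 5 or more UMIs, 24 and 9 UMIs were left, and the ratio was 5.92-fold.

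Among all genes in germ-like cells, 1.12% (control) and 0.625% (*Cnot3*-cKO) reached fewer than 50% of the random spread. Below that limit in control were *Mirt1* (20.8%), RP23-9F3.4 (38.4%), RP23-167L1.7, RP23-309M3.4 (16.7%), RP24-337D17.1 (21.9%) and AC107822.6 (40.2%), 6 of the 9 members. In *Cnot3*-cKO it was the same members except AC107822.6, at 57.2%. Only 8 of 12414 control genes, *Mirt1* among them, were as low as *Mirt1*, only 5 as low as RP23-167L1.7 and only 3 as low as RP23-309M3.4. RP23-41J14.2 and RP23-143D12.2 were in between, at 65.0% and 64.2% in control and 80.1% and 73.5% in *Cnot3*-cKO.

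The crowding was not shared between transcripts. In control 127 germ-like cells held 5 or more UMIs of *Mirt1*, RP23-9F3.4, RP23-167L1.7 or RP23-309M3.4, and 3 of these cells did so for more than 1 of them. In *Cnot3*-cKO the numbers were 48 and 1. The median mitochondrial share was 10.9% in the crowded control cells of RP23-167L1.7 and 10.2% in the others. Doublets called by Scrublet were 10 of its 97 crowded cells in control and 3 of 27 in *Cnot3*-cKO, against 13.6% of germ-like cells in each library.

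**Figure D3:**
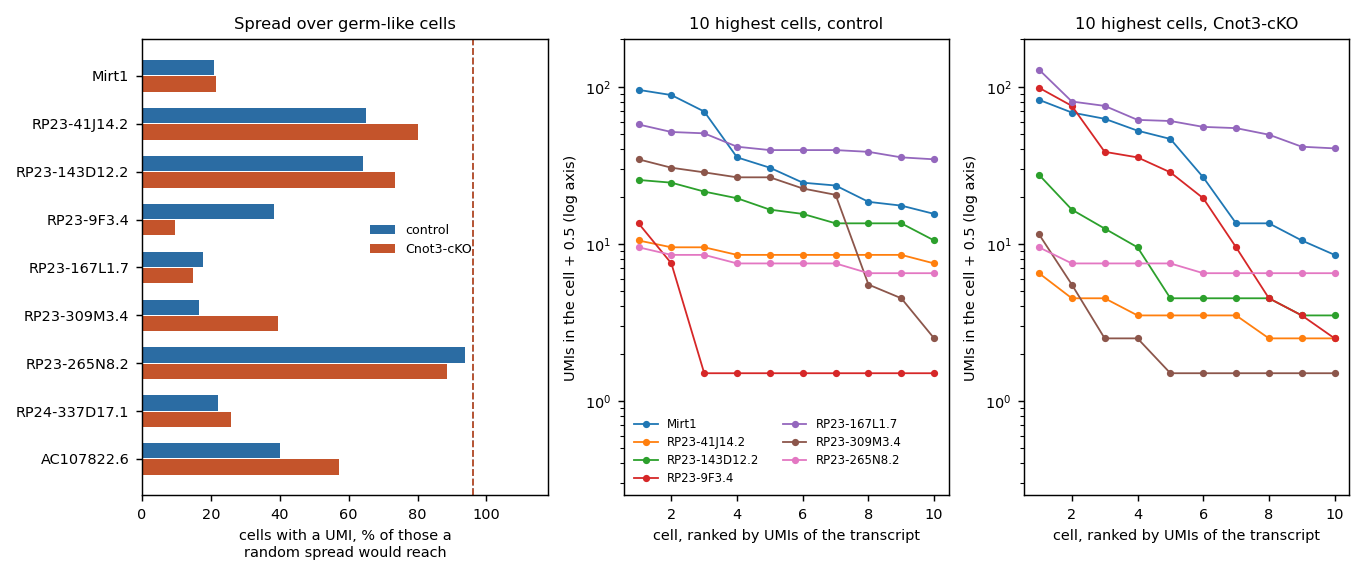
Left, germ-like cells with a UMI of each member as a percentage of the cells that a random spread of its UMIs would reach, with the medians of all genes (96.1% and 96.0%) dashed; centre and right, UMIs (plus 0.5, log axis) in the 10 germ-like cells that held most of each germ member, control and *Cnot3*-cKO. RP23-265N8.2 and RP23-41J14.2 are flat and low at no more than 10 UMIs a cell, whereas the top cell held 95 (control) and 82 (*Cnot3*-cKO) UMIs of *Mirt1*, 57 and 128 of RP23-167L1.7 and, in *Cnot3*-cKO, 98 of RP23-9F3.4.

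The genes beside these loci were read in the same cells. *Reep3*, which RP23-9F3.4 overlaps and which encodes a membrane protein of the endoplasmic reticulum, was at 36.1 CPM (control) and 36.2 CPM (*Cnot3*-cKO) in germ-like cells. In the 7 crowded *Cnot3*-cKO cells it was at 50.6 CPM (30.9 to 78.2), against 36.0 in the others. *Vwa8*, which RP23-309M3.4 overlaps, was at 8.97 and 8.76 CPM. No UMI of it was found in the 8 crowded control cells. The exact Poisson interval of 0 to 9.23 CPM takes in the 9.04 CPM of the others. The limit of 3 UMIs for a count of 0, which is 7.50 CPM here, does not. *Slc5a4b*, of a family of sodium-linked sugar transporters, was at 0.829 and 0.772 CPM, and *Ccdc28a* at 20.4 and 20.3. 4833407H14Rik, the lincRNA opposite *Mirt1*, was lower in *Cnot3*-cKO (6 UMIs, 0.231 CPM) than in control (32 UMIs, 0.564 CPM), with a log2 ratio of -1.29 and an interval of -2.83 to -0.0075. *Exoc3l4*, beyond RP23-41J14.2, was at 1.20 and 2.93 CPM, the opposite direction to its neighbour.

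The germ-like cells were split by clustering into groups named from stage markers. Of the germ-like cells in control and *Cnot3*-cKO, SSC-like ones were 20.4% and 56.4%, progenitor-like 24.3% and 2.32%, differentiating-like 26.2% and 11.8% and meiotic-like 13% and 12.3%. Of the SSC-like cells, cluster 3 held 266 control and 38 *Cnot3*-cKO cells and cluster 4 held 6 and 278, so cluster 4 and the *Cnot3*-cKO library cannot be told apart. The progenitor-like group of *Cnot3*-cKO held 13 cells. The other cells formed 2 unnamed clusters, 5 and 7, led by stromal and by Sertoli genes, of which 83.6% and 80.6% were called doublets.

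RP23-41J14.2 was highest in progenitor-like cells. Its control levels were 11.4 CPM in SSC-like, 47.5 in progenitor-like, 8.56 in differentiating-like and 0.680 in meiotic-like cells. At least 1 UMI was found in 236 of 324 control progenitor-like cells (72.8%) and in 26.5% of SSC-like cells. In *Cnot3*-cKO the same groups were at 3.32, 21.9, 5.02 and 1.49 CPM, lower in all but the last. Progenitor-like cells were first and meiotic-like cells last in both libraries, while SSC-like and differentiating-like cells changed places. The log2 ratio was -1.78 (-2.29 to -1.29) within SSC-like and -1.11 (-1.96 to -0.38) within progenitor-like cells. Both were smaller in size than the -2.35 over all germ-like cells, in which progenitor-like cells were also fewer. The SSC-like ratio largely compared different clusters between the libraries. Within cluster 3 alone it was -1.01 (-2.17 to -0.04), from 120 control and 9 *Cnot3*-cKO UMIs. Differentiating-like cells gave -0.77 (-1.65 to 0.0036) and meiotic-like cells 1.14 (-1.29 to 3.56), both with intervals that take in equal levels.

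RP23-9F3.4 was at 0.0934 CPM in control SSC-like cells (1 UMI) and at 21.6 CPM in those of *Cnot3*-cKO (319 UMIs). Of its 326 germ-like UMIs in *Cnot3*-cKO, 318 lay in 19 of the 278 cells of cluster 4, among them all 7 crowded cells. In the 38 *Cnot3*-cKO cells of the other SSC-like cluster 1 UMI was found. Control cells gave at most 1.08 CPM, in the differentiating-like group.

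*Mirt1* was highest by CPM in meiotic-like cells in both libraries, at 33.2 (control) and 67.6 CPM (*Cnot3*-cKO), but few cells set these levels. A single meiotic-like cell held 88 of 195 UMIs in control and 82 of 181 in *Cnot3*-cKO. The share of cells with a UMI had no such peak. In control it was 8.05% of meiotic-like, 10% of differentiating-like and 7.35% of SSC-like cells. In *Cnot3*-cKO it was 13.0% of meiotic-like and 12.7% of SSC-like cells. In the other stages the libraries differed in their order of CPM. Control differentiating-like cells were at 14.6 CPM and SSC-like cells at 4.02, while in *Cnot3*-cKO the values were 1.34 and 14.3. Of the 13 crowded *Cnot3*-cKO cells, 7 were SSC-like, all in cluster 4, and none was differentiating-like, against 2 and 9 of 23 in control.

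RP23-167L1.7 was highest in control progenitor-like cells, at 72.0 CPM, followed by SSC-like (38.9), meiotic-like (16.8) and differentiating-like cells (15.6), the last pair within counting error of each other. In *Cnot3*-cKO the SSC-like cells were highest, at 47.4 CPM, with 38.2 in differentiating-like, 36.6 in progenitor-like and 17.9 in meiotic-like cells. Single cells weighed on these *Cnot3*-cKO values too. The progenitor-like value came from 25 UMIs, 24 of them in 1 cell. One cell of each of the other stages held 61 of 114 differentiating-like, 28 of 48 meiotic-like and 128 of 700 SSC-like UMIs. Even in control progenitor-like cells, 77 of 324 (23.8%) held a UMI of it, and 46 of those held 5 or more.

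RP23-309M3.4 was highest by CPM in control differentiating-like (7.36 CPM) and meiotic-like cells (6.46), with 4.02 in SSC-like and 0.210 in progenitor-like cells. The *Cnot3*-cKO groups gave 0.670, 4.11, 0.406 and 7.31 CPM in the same order, from 2, 11, 6 and 5 UMIs. Single cells weighed heavily on these orders. In control 1 cell held 34 of 38 meiotic-like UMIs and another 26 of 43 SSC-like UMIs. The control shares of cells with a UMI were 3.43% in differentiating-like, 2.30% in meiotic-like, 3.68% in SSC-like and 0.926% in progenitor-like cells. In *Cnot3*-cKO the 2, the 11 and the 5 UMIs each lay in 1 cell.

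RP23-265N8.2 was at 26.2 CPM in both SSC-like and progenitor-like control cells, at 47.2 in differentiating-like and at 48.5 in meiotic-like cells, so the earlier stages lay below the later ones. In *Cnot3*-cKO it was at 22.7, 23.4, 47.6 and 31.8 CPM, so the libraries differed chiefly in the meiotic-like cells. A UMI was found in 62.9% of control SSC-like and 80.3% of control differentiating-like cells. RP23-143D12.2 differed least over stages in control, from 8.50 CPM in SSC-like to 15.1 in differentiating-like cells. Its *Cnot3*-cKO levels ran from 6.72 CPM in meiotic-like to 17.6 in the 13 progenitor-like cells, the latter from 12 UMIs.

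**Figure D4:**
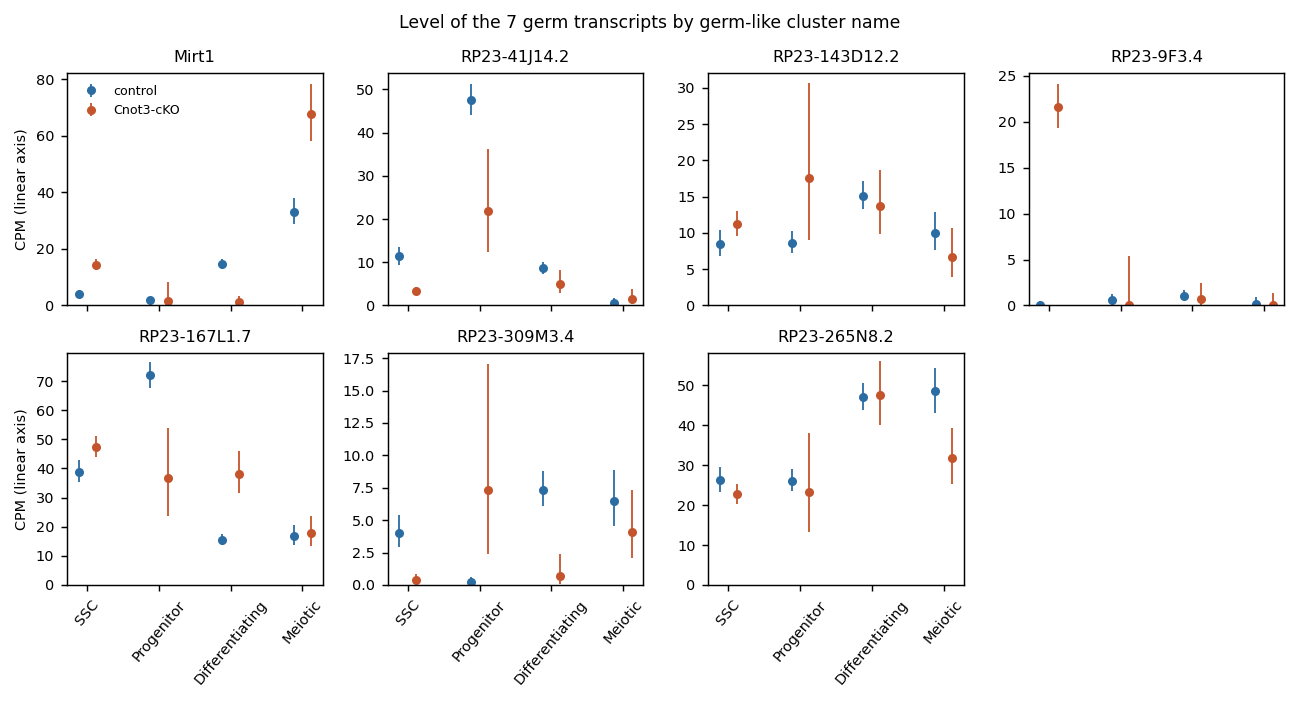
CPM (linear axes, which differ between panels) of the 7 germ members in SSC-like, progenitor-like, differentiating-like and meiotic-like cells, blue for control and orange for *Cnot3*-cKO, with 95% Poisson intervals. RP23-41J14.2 peaks in progenitor-like cells in both libraries (47.5 and 21.9 CPM), *Mirt1* in meiotic-like cells (33.2 and 67.6), and RP23-9F3.4 stands out in the SSC-like cells of *Cnot3*-cKO alone (21.6). The *Mirt1* peak rests on few cells, with 88 of 195 (control) and 82 of 181 UMIs (*Cnot3*-cKO) in 1 cell.

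Because germ-like cells were deeper than Sertoli-like cells (medians of 42275.5 and 46151.5 UMIs against 13287.5 and 12759), shares of cells with a UMI were also taken after thinning each cell to 10000 UMIs, which left out 25 and 10 germ-like cells. RP23-265N8.2 was then seen in 28.1% (control) and 22% (*Cnot3*-cKO) of germ-like cells, against 0.344% and 0.154% of Sertoli-like cells. RP23-41J14.2 was seen in 15.4% and 3.82%, against a Sertoli-like background of 2.29% and 1.85%. Before thinning the germ-like shares were 68.6% and 58.8% for the former and 35.1% and 12.7% for the latter.

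For the crowded transcripts these shares were low although their CPM were not. RP23-167L1.7 was seen in 9.09% and 6.55% of thinned germ-like cells, *Mirt1* in 3.13% and 4.18%, RP23-309M3.4 in 1.15% and 0.545%. Their Sertoli-like shares were at most 0.535%, and for RP23-309M3.4 in control 0 of 2619, which allows a share of up to 0.115%. RP23-9F3.4 was seen in 0.229% of control germ-like cells, no more than the 0.267% of Sertoli-like cells, and in 2.18% of those of *Cnot3*-cKO, against 0.385%. RP23-143D12.2 was seen in 6.65% and 8.55% of germ-like cells, against 1.91% and 1.90%.

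Levels were also taken over strata of germ barcodes, chosen by a combined 10 or more UMIs of 2 germ cell genes, *Dazl* and *Ddx4*: 1350 (control) and 564 (*Cnot3*-cKO), with 77 and 22 of them at 10 to 19 UMIs and 28 and 23 more barcodes just under the limit, at 5 to 9. Between 5 to 10% and 10 to 20% mitochondrial UMIs, RP23-167L1.7 went from 22 to 49.9 CPM in control and from 25.9 to 50.2 in *Cnot3*-cKO. RP23-41J14.2 went from 13.5 to 24.8 and from 3.0 to 5.64. *Mirt1* went the other way, from 15.5 to 7.10 and from 21 to 14.8. In *Cnot3*-cKO these directions depended on the strata for both *Mirt1* and RP23-167L1.7: with quartiles of mitochondrial share in their place, the log2 ratio of the highest over the lowest was 0.24 for *Mirt1* and -0.61 for RP23-167L1.7. The quartiles take in barcodes under 5% and over 20%, which the strata compared here leave out. The part of those barcodes in the turned directions was not tested.

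Stage composition changed over the same strata: progenitor-like cells, in which RP23-167L1.7 and RP23-41J14.2 were highest in control, were 14% of the lower and 33.0% of the upper control stratum. RP23-167L1.7 also differed within control SSC-like cells (16.3 against 58.6 CPM), within control progenitor-like cells (43.1 against 83.5) within control meiotic-like cells (9.33 against 30.2) and within *Cnot3*-cKO SSC-like cells (25.9 against 70.9). The order was the opposite within control differentiating-like cells (19.4 and 11.3 CPM), and within the differentiating-like (40.2 and 1.91) and meiotic-like cells (20.8 and 15.1) of *Cnot3*-cKO. These *Cnot3*-cKO values came from few cells, with 71 and 2 differentiating-like and 29 and 19 meiotic-like UMIs. Of the others, RP23-309M3.4 was at 6.39 and 1.71 CPM in the control strata and at 1.04 and 1.0 in those of *Cnot3*-cKO. RP23-265N8.2 was at 38.4 and 30.2, then 26.0 and 26.7. RP23-9F3.4 was at 14.7 and 8.89 in *Cnot3*-cKO, and RP23-143D12.2 was higher in the upper stratum of both libraries by less than 1.5-fold.

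The outermost strata were small, and some of their *Cnot3*-cKO values rested on single barcodes. Over 20% mitochondrial UMIs, 17 *Cnot3*-cKO barcodes gave *Mirt1* at 138 CPM, but 50 of its 52 UMIs lay in 1 barcode. Under 5%, 17 barcodes gave RP23-167L1.7 at 347 CPM, with 128 of 173 UMIs in 1 barcode. In control, 25 barcodes over 20% gave RP23-167L1.7 at 25.6 CPM, from 14 UMIs with at most 7 in 1 barcode. That was near its level at 5 to 10% (log2 ratio 0.22, -0.66 to 0.98) and below the 49.9 CPM at 10 to 20%. RP23-41J14.2 there was at 27.4 CPM, from 15 UMIs in 6 barcodes, with a log2 ratio over 5 to 10% of 1.02 (0.17 to 1.76).

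Over depth the strata followed no single order. *Mirt1* in control was at 4.03 CPM in barcodes under 20000 UMIs, 17.6 at 20000 to 40000, 10.9 at 40000 to 60000 and 2.75 above. RP23-167L1.7 was at 9.40, 52.1, 35.5 and 17.9 CPM in the same strata, likewise highest in the second. RP23-265N8.2 in control was nearly level above 20000 UMIs, at 34.2, 34.7 and 33.7 CPM, and in *Cnot3*-cKO the same strata were at 19.7, 29.8 and 24.6. RP23-9F3.4 in *Cnot3*-cKO had no UMI in the 48 barcodes under 20000 UMIs or in the 160 at 20000 to 40000, and was at 16.4 and 15.5 CPM above.

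**Figure D5:**
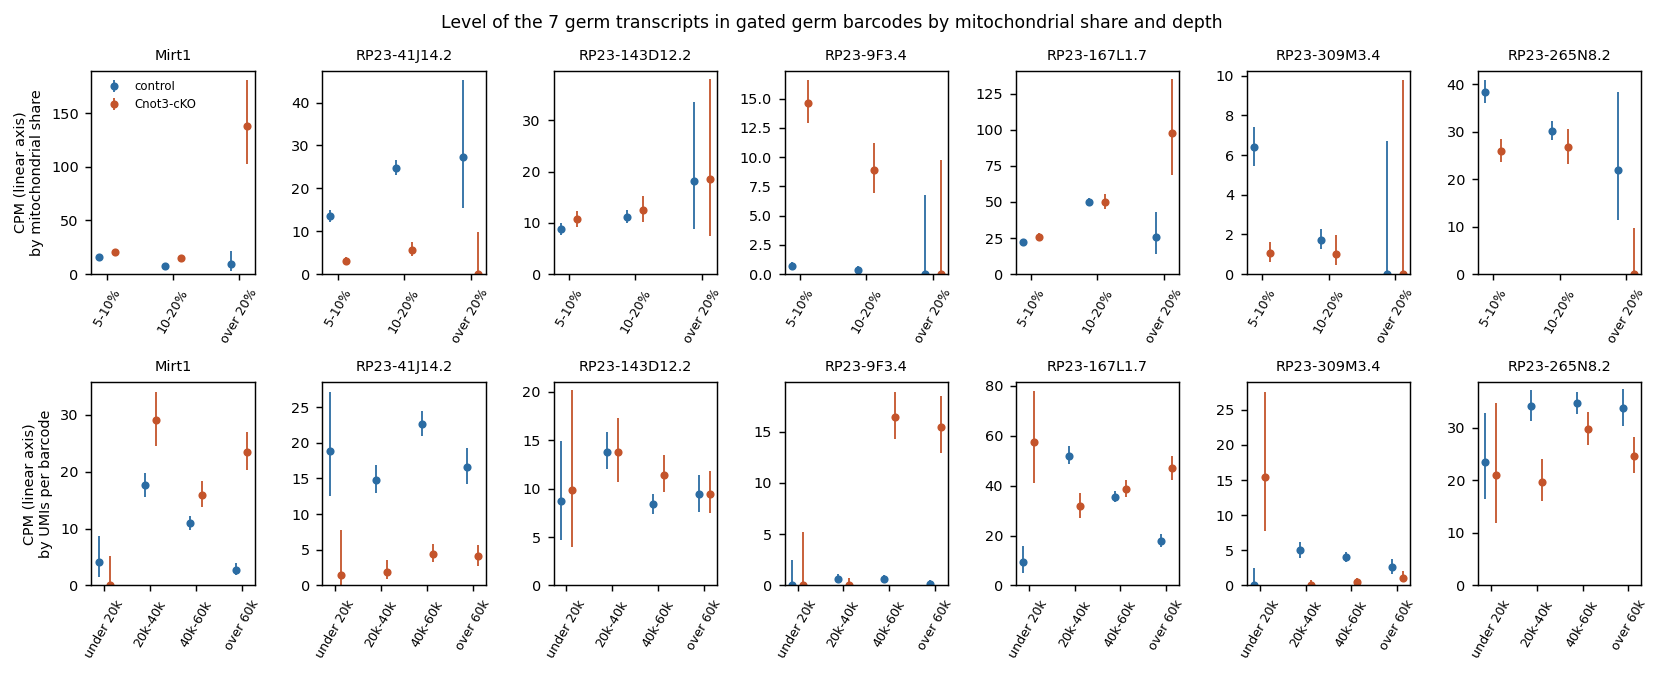
CPM (linear axes, which differ between panels) of the 7 germ members in gated germ barcodes by mitochondrial share (top) and by UMIs per barcode (bottom), blue for control and orange for *Cnot3*-cKO, with 95% Poisson intervals; the stratum under 5% mitochondrial UMIs is not drawn. RP23-167L1.7 is about 2-fold higher at 10 to 20% than at 5 to 10% in both libraries, although quartiles turn its direction in *Cnot3*-cKO (log2 -0.61), and the *Mirt1* point over 20% in *Cnot3*-cKO (138 CPM) is 17 barcodes with 50 of 52 UMIs in 1.

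RP24-337D17.1 and AC107822.6 were abundant in Sertoli-like cells of both libraries. RP24-337D17.1 was at 717 and 754 CPM (29704 and 45179 UMIs), a log2 ratio of 0.07 (0.05 to 0.09), and AC107822.6 at 687 and 803 CPM (28465 and 48103 UMIs), a ratio of 0.23 (0.20 to 0.25). Neither reached 2-fold in either direction, which 0.389% of 12076 genes in these cells did. RP24-337D17.1 reached 95.9% and 95.2% and AC107822.6 93.9% and 95% of the random spread. At such counts a random spread reaches nearly every cell (2883 of 2884 in control for both), so these shares say little on how evenly the UMIs lay. No member was below 50% in Sertoli-like cells, where 0.513% of genes in control and 0.465% in *Cnot3*-cKO were. Some germ members had very few UMIs there, down to 1 for RP23-309M3.4 in control, so for these the measure could show little. After thinning, 94.1% and 92.9% of Sertoli-like cells held RP24-337D17.1 and 91.3% and 93.5% held AC107822.6. In stroma-like cells RP24-337D17.1 was at 10.4 and 12.9 CPM and AC107822.6 at 8.83 and 15.7.

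Over the 5 Sertoli-like clusters of the clustering of all cells, the pair stood at similar control levels in 4 and parted in cluster 6. RP24-337D17.1 was highest in cluster 6, led by the stress and immediate response genes *Tnfrsf12a* and *Atf3*, at 1183 (control) and 1367 CPM (*Cnot3*-cKO), followed by cluster 4 at 863 and 903. AC107822.6 was highest in cluster 4, at 900 and 992 CPM, and was at 476 and 592 in cluster 6. In cluster 1, led by the mitotic genes *Cdk1* and *Top2a*, RP24-337D17.1 was at 498 and 511 CPM and AC107822.6 at 516 and 607. In cluster 5, led by *Cidea* and *Fabp3*, they were at 436 and 375 and at 432 and 506, and in cluster 12 at 626 and 629 and at 642 and 814. Members were kept out of the clustering, and both libraries gave the same first cluster for each.

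They also differed outside cells. In barcodes of at most 100 UMIs, which hold free RNA and no cell, AC107822.6 was at 495 and 641 CPM, 72.1% and 79.8% of its Sertoli-like level. RP24-337D17.1 was at 138 and 216 CPM, 19.3% and 28.6%. Sertoli marker genes together stood at 30.3% and 47.3% there. For each UMI of RP24-337D17.1, AC107822.6 had 0.958 and 1.06 UMIs in Sertoli-like cells but 3.59 and 2.97 in the empty barcodes. Of the germ members, RP23-9F3.4 differed most between libraries in the empty barcodes, at 0.290 CPM (2 UMIs) in the control library and 6.20 (45 UMIs) in that of *Cnot3*-cKO. It was not alone. RP23-143D12.2 was also higher in *Cnot3*-cKO there (2.61 and 5.79 CPM), as were RP24-337D17.1 and AC107822.6. RP23-41J14.2 (7.54 and 2.76) and RP23-265N8.2 (11.9 and 6.06) were lower. How many of all genes differed there was not counted. Germ-like cells were 16.2% of the control and 6.04% of the *Cnot3*-cKO cells used. The part of this difference in the empty barcodes was not tested.

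Most of the signal of these Sertoli transcripts in germ-like cells lay in the doublet-rich clusters, more so for RP24-337D17.1. The other germ-like cells held 65 of 1031 (control) and 32 of 563 (*Cnot3*-cKO) of its UMIs. For AC107822.6 they held 217 of 1117 and 211 of 817. Cells with 5 or more UMIs of RP24-337D17.1 numbered 68 in control and 36 in *Cnot3*-cKO, of which 66 and 36 were in the unnamed clusters and 62 and 29 were called doublets. For AC107822.6, 57 of 59 and 38 of 38 were in the unnamed clusters. In the Sertoli-led unnamed cluster the Sertoli markers stood at 23.8% and 22% of their Sertoli-like level, RP24-337D17.1 at 28.5% and 24.5% and AC107822.6 at 27.1% and 25.1%.

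Without the unnamed clusters, germ-like cells had RP24-337D17.1 at 1.39 CPM (control) and 1.51 CPM (*Cnot3*-cKO), which Sertoli-like cells exceeded 514-fold and 498-fold. AC107822.6 was at 4.66 and 9.99 CPM, a log2 ratio of 1.10 (0.82 to 1.38), past 2-fold. In the same cells the Sertoli markers summed to 54.6 and 89.4 CPM, 0.697% and 1.14% of their Sertoli-like level, beside 0.678% and 1.24% for AC107822.6 and 0.195% and 0.201% for RP24-337D17.1. The part of free Sertoli RNA in these values was not tested.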

How the data were processed

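The authors made UMI counts per gene and barcode with Cell Ranger 3.0.1 (10x Genomics 3′ chemistry, Ensembl 93 annotation) and deposited them uncalled, as 1 matrix for each genotype. The sources used here do not give the aligner's settings. By default Cell Ranger counts reads in the sense of a gene.

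A barcode was called a cell if it reached 1/10 of the 99th percentile among the 3000 deepest, and was kept up to 20% mitochondrial UMIs. Clustering (scanpy 1.11.5) used both libraries, 2500 variable genes, 30 principal components and Leiden resolution 0.5, without the members. Naming from marker lists was settled after the data were seen. UMIs were summed per library and group and given as CPM, with exact Poisson, conditional or Clopper-Pearson 95% intervals (scipy 1.17.1), and a count of 0 was read as allowing up to 3. No p-value was computed with 1 library a group. The random spread places each cell's chance of a UMI in proportion to its depth. Before use, ratios and intervals were run on counts simulated with counting error alone, which is the error the intervals assume. That run could not show how they fare with crowded UMIs or between animals. The spread measure was run on simulated UMIs placed at random and in clumps. Positions are from GENCODE M21, to which 99.8% of 30828 identifiers matched without their version and 93.3% with it, *Mirt1* being among those whose version differs.

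Named genes are the members, their neighbours within 10 kb, the 3 genes most alike to each, and a list of noncoding RNAs. Members and lists were chosen with earlier results of these data known. Alternatives covered filters, clusters, doublets, scaling (edgeR 4.0.16 for TMM), free RNA, thinning and strata.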

Additional observations from a re-analysis of the deposited data

How the results depend on the processing

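The filters stated in the study, which cap UMIs per cell and mitochondrial UMIs at 10%, left far fewer germ-like cells, 241 in control and 73 in *Cnot3*-cKO. There the log2 ratio was -4.15 for *Mirt1* and 0.39 for RP23-309M3.4, both in the other direction, 3 members were at least 2-fold higher and 4 lower, and RP23-41J14.2 in *Cnot3*-cKO was lower in germ-like than in Sertoli-like cells (log2 -1.37). RP24-337D17.1 had a ratio of -0.028 with the mitochondrial limit at 10% alone. RP23-167L1.7, near equal in any case, had -0.12 without doublets, -0.021 with every cell weighed alike and -0.033 without the cell of most UMIs in each library. Leaving out the unnamed germ clusters gave 2 members at least 2-fold higher. Leaving out cells with 5 or more UMIs of a transcript gave 1 member at least 2-fold lower, with RP23-309M3.4 at -0.60 (-1.79 to 0.46). This step and leaving out the top cell were chosen after seeing the data. No share of all genes in the same cells stands beside these counts of members, so nothing is read from them. The share of all genes at least 2-fold higher or lower was 10.9% and 2.76% with 1 UMI required in each library and 0.394% and 0.178% with 1000. Over mitochondrial strata of *Cnot3*-cKO, quartiles gave 0.24 for *Mirt1* and -0.61 for RP23-167L1.7, and barcodes of 20000 to 60000 UMIs gave 0.029 for *Mirt1*; over depth in control, quartiles gave -0.033 for RP23-167L1.7. Of 106 alternative ratios in germ-like cells, 78 moved within their interval. The causes were not tested. No paired analysis was possible because each matrix merges the samples of a genotype, and no sample could be left out for the same reason.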

Other observations

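A list of 25 better known noncoding RNAs was read in the same cells. Of these, 15 had a row, and 13 had at least 100 UMIs in germ-like cells. None of the 13 was at least 2-fold higher or lower in *Cnot3*-cKO, where 1.85% and 0.594% of all genes were, and their median log2 ratio was -0.07, against 0.02 over all genes. *Neat1*, which scaffolds nuclear paraspeckles, had the highest ratio, 0.55 (8.39 and 12.3 CPM), and *Airn*, which silences imprinted genes near *Igf2r*, the lowest, -0.33 (2.96 and 2.35 CPM). *Malat1*, an abundant nuclear RNA, was at 2194 and 2135 CPM. None of the list was crowded as *Mirt1* was: in control germ-like cells it reached between 67.7% (*Meg3*) and 99.7% (*Malat1*) of the cells of a random spread.

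The genes most alike to each member over 23 cell classes and germ clusters of both libraries, among 15776 genes, were found by Pearson correlation of log2(CPM + 1), as a description of points that share 2 libraries. For the Sertoli transcripts they were *Mro*, RP23-192A6.2 and *Gata6* for RP24-337D17.1 (0.98, 0.97 and 0.97), and *Clu*, *Amhr2* and *Cst12*, all Sertoli products, for AC107822.6 (0.99 each). RP23-265N8.2 was most like RP23-14I19.1, a further clone-named transcript and *Sycp3*, which encodes a component of meiotic chromosome axes (0.99 each). RP23-41J14.2 was most like *Onecut2*, *Epb41l4a* and *Fbxo40* (0.90, 0.90 and 0.89), and RP23-167L1.7 most like *Adad1*, *Rhov* and *Ccdc172* (0.98 each). *Mirt1* was most like *Hist1h2ba*, *Plk5* and *Brinp2* (0.92, 0.90 and 0.89), RP23-143D12.2 most like *Tti1*, *Lsm7* and *Erc2* (0.95 each) and RP23-309M3.4 most like RP23-203B24.12, *Zfp131* and *Cinp* (0.84, 0.82 and 0.82). RP23-9F3.4 had the weakest likeness, 0.62 to *Iqub*, then 0.60 to *Rgs7* and to *Nuggc*.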
